A study of Mus musculus with 6 samples.

Results

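The nuclear genes for the mitochondrial respiratory chain were examined in primary mouse lung fibroblast cultures treated with purmorphamine. Members were all genes whose symbol in the platform annotation marks a subunit of NADH dehydrogenase (complex I, Nduf genes), succinate dehydrogenase (complex II, Sdh), the cytochrome bc1 complex (complex III, Uqcr), cytochrome c oxidase (complex IV, Cox4 to Cox8) or ATP synthase (complex V, Atp5). Pseudogenes were left out, and a gene with more than 1 probe set was read at the one with the highest mean over the arrays. This gave 78 members of 22180 genes tested, with 33 in complex I, 4 in complex II, 7 in complex III, 17 in complex IV and 17 in complex V.

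The treated group was 3 wells of cells labelled as lung fibroblasts that had received purmorphamine for 24 h. The dose is labelled 5um, taken here to mean 5 µM. The control group was 3 wells of the same kind of cells with vehicle. All cells came from wild-type male C57BL/6 mice aged 8 weeks, were enriched from whole digested lung, grown in serum on plastic and passaged at most 3 times. Purmorphamine is an agonist of Smoothened, a protein that passes Hedgehog signals on toward Gli transcription factors, and the comparison asks what this agonist did to the transcripts of the cultures. One array was hybridised per well. The labels do not say from how many mice or cell pools the wells came, so the p-values rest on well-to-well spread that may be technical.

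Complexes I to IV pass electrons from NADH and succinate to oxygen. Complexes I, III and IV pump protons across the inner mitochondrial membrane while they do so, and complex V uses the resulting gradient to make ATP. Most subunits are encoded in the nucleus and some in mitochondrial DNA. Several complex IV subunits exist as a widely expressed form and as a form limited to some tissues, such as heart and skeletal muscle. Of the 13 mitochondrially encoded subunits 0 were found by symbol among the genes tested, so they were not analysed here.

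Markers of the cell types that digested lung can hold were measured in the cultures. The test given below was passed by 14.3% of all genes. It was passed by 78.6% of fibroblast, 46.7% of leukocyte and macrophage and 40% of endothelial markers. The share was 100% for proliferation genes, 9.09% for epithelial and 0% for adipocyte markers. Of 14 fibroblast markers 9 rose and 2 fell after purmorphamine, and their summed linear signal was 48257 to 49952 on purmorphamine arrays and 43959 to 45239 on vehicle arrays. Of 15 leukocyte and macrophage markers 1 rose and 6 fell, with sums of 63468 to 65607 against 68864 to 69368. Of 10 endothelial markers 4 rose and 0 fell, with sums of 5155 to 5361 against 4466 to 4731. All 15 measured proliferation genes fell, with sums of 14195 to 14710 against 21825 to 22408. Of 11 epithelial markers 1 rose, and of 5 adipocyte markers none changed, with sums that overlapped between the groups (4909 to 4962 against 4863 to 5020, and 395 to 411 against 383 to 421). In such bulk cultures fewer cells of a type and less RNA per cell cannot be told apart, and the part of these shifts in the results below was not tested. Leukocyte and macrophage markers had a median log2 signal of 11.35, fibroblast markers of 10.15 and all genes of 6.94. The results below are those of the whole culture and not of fibroblasts alone. The Hedgehog target genes Gli1 (-0.12), Ptch1 (0.17) and Hhip (0.060, log2 differences) did not pass the test.

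Few respiratory chain transcripts changed after purmorphamine. With limma and Benjamini-Hochberg adjustment over all genes, 2 of the 78 members rose and 1 fell. Ndufa4l2, a paralog of the oxidase subunit gene Ndufa4, rose by 1.996-fold, Cox6a2, the heart and muscle form of oxidase subunit VIa, rose by 1.63-fold, and Atp5g3, which encodes subunit c of ATP synthase, was 1.19-fold lower. These are 3.85% of the members, where 14.3% of all genes passed the same test. By direction, 2.56% of members rose, against 7.18% of all genes, and 1.28% fell, against 7.16%. An unadjusted p under 0.05 was reached by 14 members (17.9%) and by 28.2% of all genes. An adjusted p under 0.1 was reached by 6 members (7.69%) and by 20.5% of all genes. The median log2 difference, purmorphamine minus vehicle, was -0.023 over the members and -0.0084 over all genes.

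The count of members called depended on the setting. With a variance trend and robust fit, 4 members rose and 8 fell, 15.4% of members against 21.2% of genes. With only the brighter 14786 genes tested, 3 rose and 4 fell, 9.46% of the 74 members left against 29.4% of genes. With a linear offset of 50, 4 rose and 5 fell, 11.5% against 20.1%.

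The data also bound the changes. For 74 members (94.9%) the 95% interval of the difference lay inside a 1.5-fold change in either direction, which is 0.58 on the log2 scale, against 91.0% of all genes. For 51 members (65.4%) it lay inside a 1.2-fold change, against 36.4% of all genes. The 4 members outside the wider bound were Ndufa4l2, Cox6a2, Cox7a1 and Atp5g1. The members had a median SE of 0.064 and a median signal of 9.67, against 0.073 and 6.94 for all genes. Quartiles of an array are those over all 41345 probe sets, named or not. On all 6 arrays, 53 members exceeded the array's upper quartile, and 2, Cox7b2 and Cox8c, stayed under its lower quartile.

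**Figure D1:**
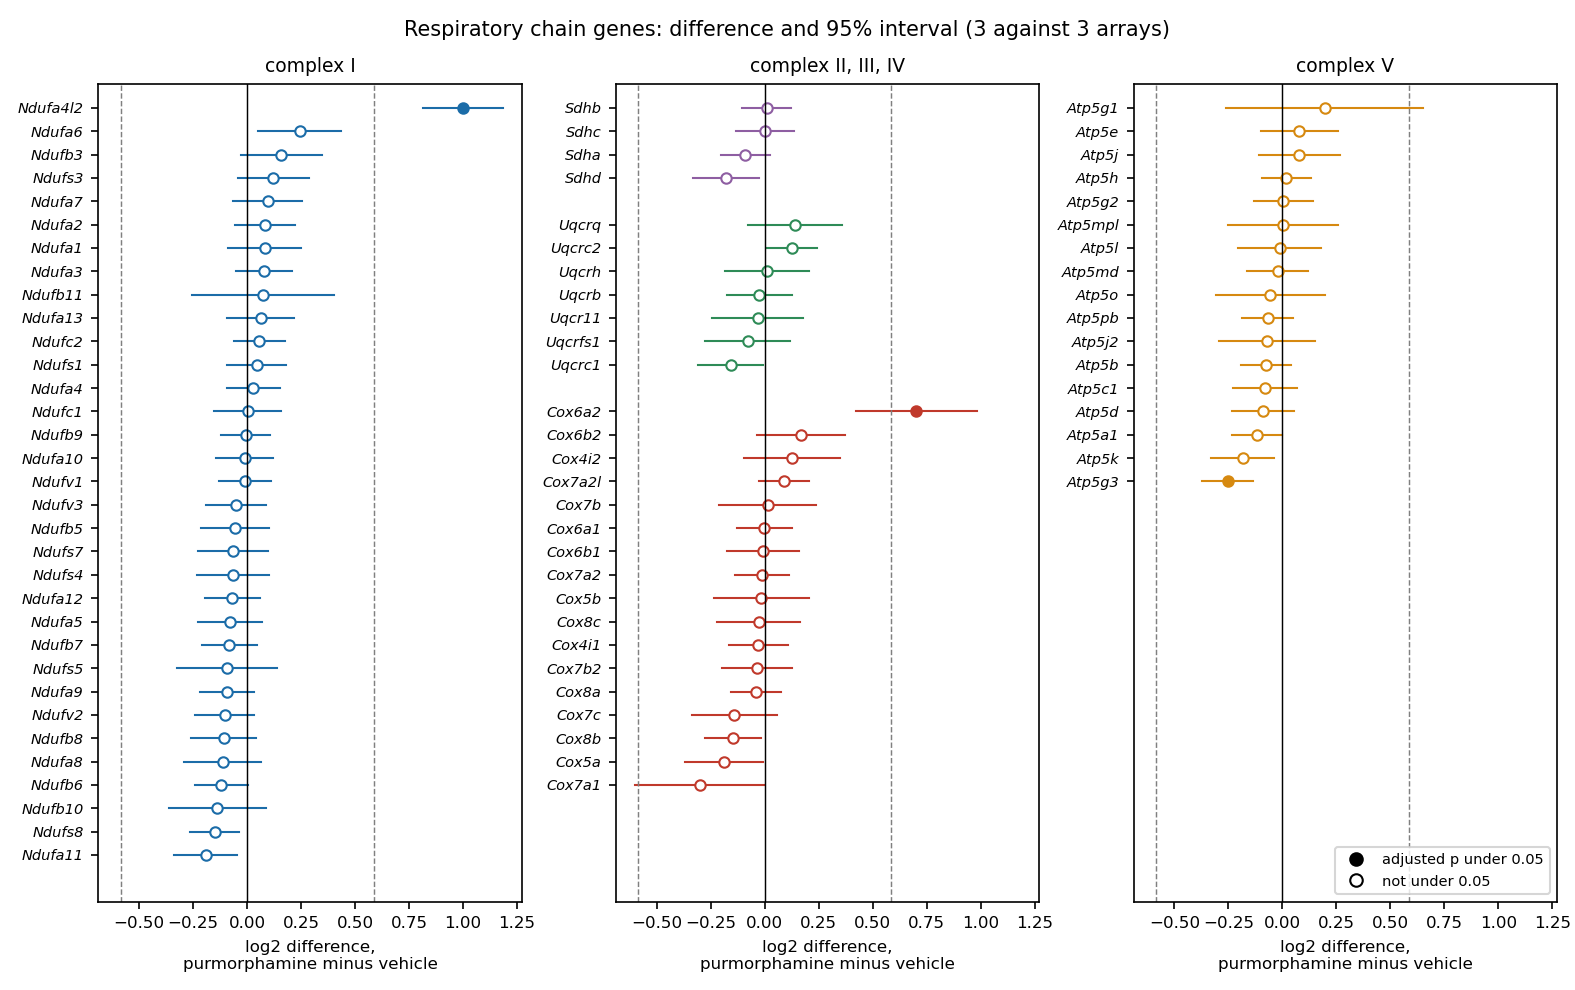
Log2 difference (purmorphamine minus vehicle, horizontal axis) of each of the 78 respiratory chain genes, with its 95% interval as a line, by complex. Filled points had an adjusted p under 0.05, and dashed lines mark a 1.5-fold change. Ndufa4l2 and Cox6a2 lie to the right of all other members and Atp5g3 is the filled point at the left.

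**Figure D2:**
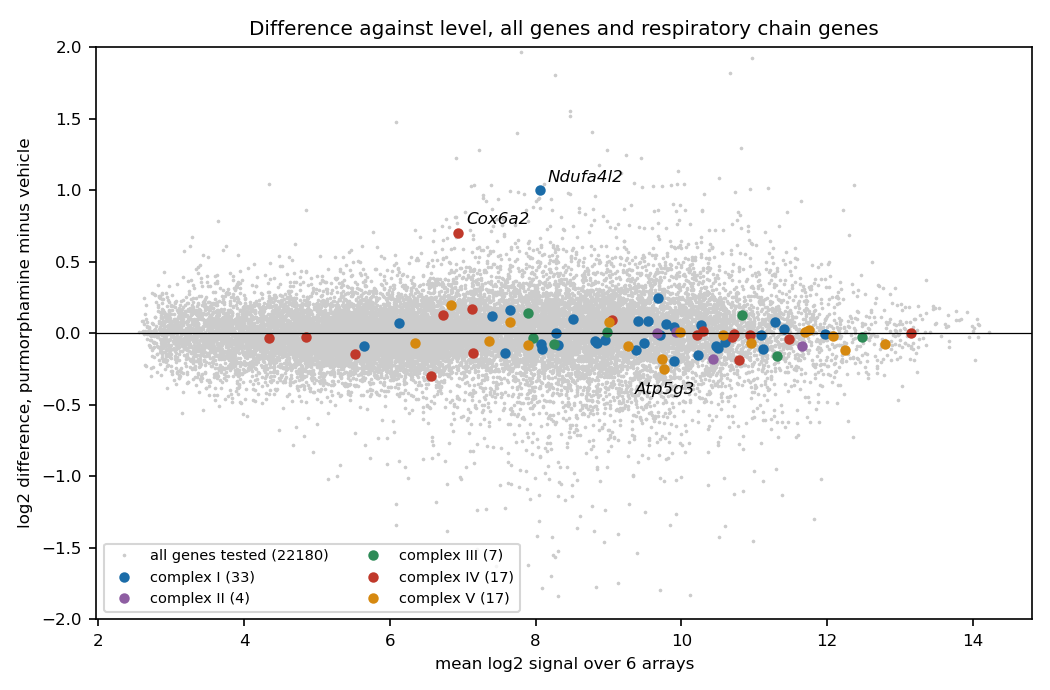
Log2 difference (vertical axis) against mean log2 signal over the 6 arrays (horizontal axis) for all 22180 genes tested (grey) and the members (coloured by complex). Most members form a flat band around 0, and 11 genes, none a member, lie outside the vertical range.

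More members had negative than positive differences. Of the 78 differences 48 were negative and 30 positive, while over all 22180 genes 11544 were negative and 10636 positive. The 3 purmorphamine values lay all below the 3 vehicle values in 18 members (23.1%), where this held for 17.1% of all genes, and all above them in 5 (6.41%), again against 17.1% of all genes. In either direction these were 23 members (29.5%), against 34.2% of all genes. The vehicle arrays were not level for these genes. Vehicle replicate 1 held the highest of the 3 vehicle values in 51 members (65.4%), against 31.8% of all genes, and vehicle replicate 2 the lowest in 45 (57.7%), against 36.8%. Without vehicle replicate 1 the members' median difference was -0.0027, and without vehicle replicate 2 it was -0.050. The purmorphamine arrays showed no such order, with each the highest in 23 to 29 members.

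On each array the median signal of the members was 9.63, 9.67 and 9.60 with purmorphamine, against 9.64, 9.59 and 9.66 with vehicle. These ranges overlapped. The members made up 0.978% to 0.997% of the summed linear signal of all named genes with purmorphamine, against 0.998% to 1.03% with vehicle, ranges that nearly touched.

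Among the complex I genes, Ndufa4l2 was the 1 call. The product of Ndufa4l2 is known as a mitochondrial protein that is induced through HIF-1 in low oxygen and lowers complex I activity, whereas that of Ndufa4, first counted with complex I, is a subunit of complex IV. The log2 signal of Ndufa4l2 was 8.63, 8.62 and 8.40 in purmorphamine wells, against 7.61, 7.58 and 7.48 in vehicle wells. All purmorphamine wells lay above all vehicle wells. The difference was 0.997 (SE 0.08, 95% interval 0.81 to 1.18, limma adjusted p = 5.22e-04, n = 3 per group), larger in size than that of 99.5% of all genes. Ndufa4 had 11.43, 11.43 and 11.41 with purmorphamine, against 11.44, 11.40 and 11.34 with vehicle. Its groups overlapped, and its difference was 0.028 (95% interval -0.095 to 0.15, limma adjusted p = 0.78).

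Gene sets often read together with Ndufa4l2 are given here as values, and were chosen after the values were seen. Ndufa4l2 is known as a transcript of pericytes, the mural cells of small vessels. Of 7 other genes known from these cells, the G-protein regulator gene Rgs5 differed by 1.22, Notch3 by 0.43, the proteoglycan gene Cspg4 by -0.31, Mcam by -0.16, Abcc9 by 0.15, Higd1b by -0.14 and Kcnj8 by -0.0011. Rgs5 and Notch3 rose (limma adjusted p = 4.60e-04 and 0.0090), Cspg4 fell (limma adjusted p = 0.032) and the others were not called. With Ndufa4l2 itself and Cox4i2 the list held 9 genes, of which 3 rose and 1 fell (44.4% called, against 14.3% of all genes). The summed signal of the 7 was 1666 to 1747 on purmorphamine arrays and 1705 to 1747 on vehicle arrays, ranges that overlapped. Mcam, at 9.76 with purmorphamine and 9.92 with vehicle, had the highest signal of the 7 and weighs most in this sum. Of 13 measured genes that HIF factors are known to induce, 4 rose and 0 fell (30.8% called, against 14.3% of all genes). Their differences ran from -0.14 for Adm to 0.52 for the mTORC1 inhibitor gene Ddit4. The mitophagy receptor gene Bnip3 differed by 0.47, Vegfa by 0.35, the kinase gene Pdk1 by 0.089 and carbonic anhydrase Car9 by -0.036. The summed signal of these 13 was 20663.5 to 21285.4 on purmorphamine arrays and 19106.5 to 19524.3 on vehicle arrays, ranges that did not overlap. The 13 hold no glycolysis enzyme, so the counts depend on the choice of genes. Of 14 glycolysis genes, counted apart, 1 rose (Eno2, 0.33) and 2 fell (Aldoc, -1.003, and Pkm, -0.19). The part of these genes in the rise of Ndufa4l2 was not tested.

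The remaining complex I genes encode the core, which holds the flavin and iron-sulfur centres, and the accessory subunits around it. Of 6 core genes (Ndufs1, Ndufs3, Ndufs7, Ndufs8, Ndufv1 and Ndufv2) 0 were called, with differences from -0.15 for Ndufs8 to 0.12 for Ndufs3. Of 25 accessory genes 0 were called, with differences from -0.19 for Ndufa11 to 0.24 for Ndufa6. Ndufs8, an iron-sulfur subunit, had 10.14, 10.17 and 10.14 with purmorphamine, against 10.30, 10.27 and 10.32 with vehicle. The groups did not overlap, but the difference of -0.15 had a limma adjusted p of 0.086. Ndufa6 had 9.78, 9.81 and 9.83 with purmorphamine, against 9.65, 9.39 and 9.65 with vehicle. It lay higher in every purmorphamine well and had an adjusted p of 0.098 with limma. The adjusted p of Ndufa11 was 0.088. Ndufb9 and Ndufa4, the complex I members of highest signal, differed by -0.0068 and 0.028. The median over the 33 genes was -0.012.

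Complex II, which links the citric acid cycle to the chain, showed 0 calls among its 4 genes. The catalytic flavoprotein gene Sdha differed by -0.090 and the iron-sulfur gene Sdhb by 0.0091. Of the membrane anchors, Sdhc differed by 0.0026 and Sdhd by -0.18. Sdhd had 10.36, 10.44 and 10.25 with purmorphamine, against 10.55, 10.55 and 10.47 with vehicle. Its groups did not overlap, and the limma adjusted p was 0.12.

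In complex III 0 of 7 genes were called. The core protein genes Uqcrc1 and Uqcrc2, whose products sit side by side in the matrix arm, had differences of opposite sign. Uqcrc1 had 11.28, 11.19 and 11.23 with purmorphamine, against 11.31, 11.37 and 11.49 with vehicle, a difference of -0.16 (limma adjusted p = 0.16). Uqcrc2 had 10.91, 10.87 and 10.90 with purmorphamine, against 10.80, 10.77 and 10.73 with vehicle, a difference of 0.13 (adjusted p = 0.15 with limma). Each gene kept its groups apart, Uqcrc1 downward and Uqcrc2 upward, without passing the test. The Rieske iron-sulfur protein gene Uqcrfs1 differed by -0.079, and the small subunit genes lay between -0.032 for Uqcr11 and 0.14 for Uqcrq, with Uqcrb, the member of highest signal, at -0.025. Cyc1, the cytochrome c1 gene of the same complex that the symbol rule does not take, differed by -0.076.

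Of the complex IV genes 1 was called, the muscle isoform gene Cox6a2. Its log2 signal was 7.22, 7.20 and 7.45 in purmorphamine wells, against 6.50, 6.44 and 6.83 in vehicle wells. The groups did not overlap, and replicate 3 was the highest well in each. The difference was 0.70 (SE 0.12, 95% interval 0.42 to 0.98, limma adjusted p = 0.0093, n = 3 per group). Cox6a1, the widely expressed form of the same subunit, had 13.09, 13.21 and 13.13 with purmorphamine, against 13.15, 13.13 and 13.16 with vehicle. It differed by -0.0017 (95% interval -0.13 to 0.12), the smallest difference in complex IV.

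None of the other 6 isoforms limited to some tissues was called. Cox7a1, a further heart and muscle form, had 6.50, 6.48 and 6.28 with purmorphamine, against 6.99, 6.53 and 6.64 with vehicle. All purmorphamine values were lower, but the difference of -0.30 had a limma adjusted p of 0.17. The rodent heart form Cox8b averaged 5.44 with purmorphamine and 5.59 with vehicle, a difference of -0.15. The arrays' lower quartiles over all probe sets were 5.03 to 5.08, and 24.8% of the genes tested had a mean signal up to that of Cox8b. Cox4i2, known from lung and from low oxygen, differed by 0.12 (95% interval -0.098 to 0.35), the testis forms Cox6b2 and Cox8c by 0.17 and -0.029, and Cox7b2 by -0.036. Striated muscle markers were measured beside them: of 8 markers 0 were called and their sum was 785 to 829 on purmorphamine arrays and 844 to 860 on vehicle arrays. Of these, Actn2 averaged 5.31 with purmorphamine and 5.39 with vehicle.

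The 9 widely expressed complex IV genes ran from -0.19 for Cox5a to 0.013 for Cox7b, and 0 were called. Cox4i1 differed by -0.030, Cox6b1 by -0.0077, Cox7a2 by -0.013 and Cox8a by -0.041. Cox5a had 10.66, 10.74 and 10.70 with purmorphamine, against 11.04, 10.79 and 10.83 with vehicle, where vehicle replicate 1 stood apart. Cox7a2l, counted apart from these 9, differed by 0.088 with groups that did not overlap (limma adjusted p = 0.30).

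**Figure D3:**
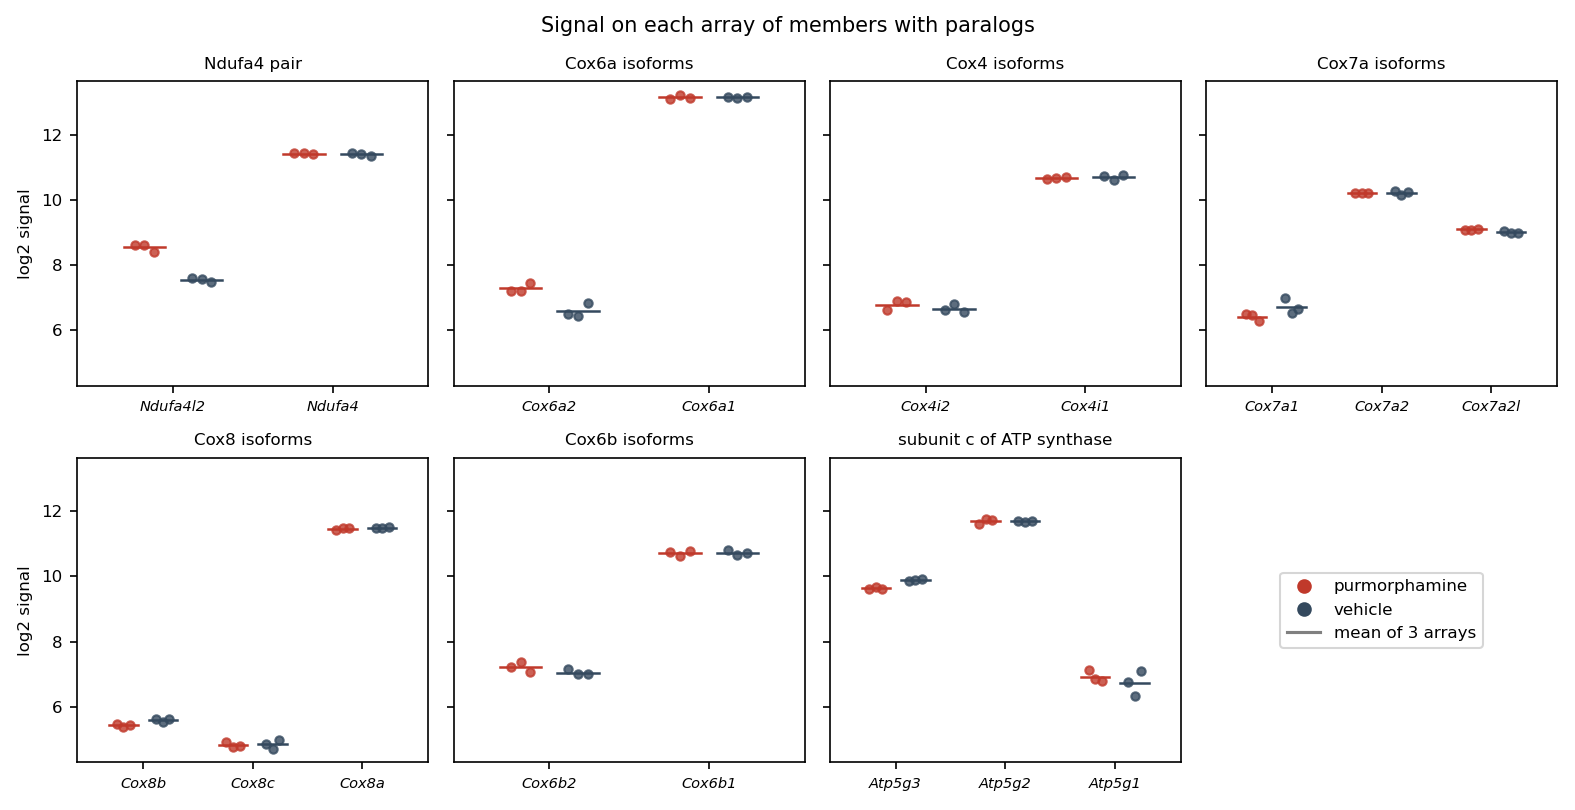
Log2 signal (vertical axis) on each of the 3 purmorphamine and 3 vehicle arrays for members with paralogs, with the mean of each group as a line. Purmorphamine points lie above vehicle points for Ndufa4l2 and Cox6a2 and below them for Atp5g3, while Ndufa4, Cox6a1 and Atp5g2 overlap. Signals of different probe sets are not comparable as amounts.

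In complex V, Atp5g3 was the 1 call. Atp5g1, Atp5g2 and Atp5g3 encode the same mature subunit c, the protein of the rotating membrane ring, behind different import sequences. Atp5g3 had 9.62, 9.68 and 9.62 in purmorphamine wells, against 9.86, 9.90 and 9.92 in vehicle wells. The groups did not overlap and each was tight. The difference was -0.25 (SE 0.05, 95% interval -0.37 to -0.13, limma adjusted p = 0.018, n = 3 per group). This call was lost when the first or the last purmorphamine array (replicates 1 and 3), or vehicle replicates 2 or 3, were left out one at a time, with limma adjusted p of 0.061 to 0.067, while the difference stayed between -0.24 and -0.27 with any 1 array left out. It was also lost without both arrays numbered 3, at a limma adjusted p of 0.15 and a difference of -0.23. The same held when limma was both fitted and adjusted over all 41345 probe sets (SE 0.056, limma adjusted p = 0.060).

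Atp5g2 had 11.61, 11.75 and 11.73 with purmorphamine, against 11.71, 11.66 and 11.71 with vehicle. It differed by 0.0047 (95% interval -0.13 to 0.14), and its second probe set by -0.0030. Atp5g1 had the largest SE of all members (0.19), with 7.14, 6.87 and 6.79 with purmorphamine, against 6.77, 6.33 and 7.11 with vehicle. Its difference of 0.20 had a 95% interval of -0.26 to 0.65, which does not exclude a 1.5-fold rise.

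Because one protein is made from these 3 genes and 1 of them was called, their RefSeq promoter windows (build GRCm38.p6, 250 bases before to 50 after the gene start, minus strand) are shown. The windows are chr11:96075582-96075881 for Atp5g1, chr15:102670998-102671297 for Atp5g2 and chr2:73911277-73911576 for Atp5g3. Capitals mark matches, on either strand, to 6 motifs known from promoters of nuclear genes for mitochondrial proteins or from widespread promoter elements.
Atp5g1: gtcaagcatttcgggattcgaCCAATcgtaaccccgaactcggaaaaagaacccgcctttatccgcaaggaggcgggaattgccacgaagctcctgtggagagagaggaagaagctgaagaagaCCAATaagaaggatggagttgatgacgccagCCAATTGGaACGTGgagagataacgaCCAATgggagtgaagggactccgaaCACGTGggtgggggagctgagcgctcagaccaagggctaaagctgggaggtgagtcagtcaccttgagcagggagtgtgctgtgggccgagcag
Atp5g2: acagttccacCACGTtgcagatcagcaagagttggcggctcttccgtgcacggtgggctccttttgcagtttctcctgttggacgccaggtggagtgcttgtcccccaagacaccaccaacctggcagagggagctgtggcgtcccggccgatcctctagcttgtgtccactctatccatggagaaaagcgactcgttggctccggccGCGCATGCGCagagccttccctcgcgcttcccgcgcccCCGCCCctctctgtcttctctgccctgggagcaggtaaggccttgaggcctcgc
Atp5g3: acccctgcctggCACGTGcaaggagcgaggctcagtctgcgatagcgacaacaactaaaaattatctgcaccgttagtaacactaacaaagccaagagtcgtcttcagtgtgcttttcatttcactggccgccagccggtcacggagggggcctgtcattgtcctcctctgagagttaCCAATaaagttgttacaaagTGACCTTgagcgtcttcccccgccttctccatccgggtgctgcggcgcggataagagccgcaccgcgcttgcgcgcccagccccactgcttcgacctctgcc

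The motifs were the palindrome of the factor NRF1, made of GCGCA followed by its reverse complement, the ETS core CCGGAAG of GABP, the motif AAGGTCA of the estrogen-related receptors, the HIF core ACGTG, the GC box core GGGCGG and the CCAAT box core CCAAT. The Atp5g2 window holds the NRF1 palindrome, a GC box core and a HIF core on the minus strand of the gene. The Atp5g3 window holds an AAGGTCA match read on the opposite strand, a CCAAT core and CACGTG, in which ACGTG is read on both strands and overlaps itself. The Atp5g1 window holds CCAAT cores, of which 2 overlap in CCAATTGG, and ACGTG cores, 2 of them in CACGTG. Windows were found for 64 of the 78 members, 69 windows in all, but not for Ndufa4l2 or Cox6a2. The NRF1 palindrome is in 5 of them (7.25%), against 0.971% of 32851 windows of the same length, and the ETS core in 17 (24.6%, against 8.86%). AAGGTCA is in 6 (8.70%, against 4.72%), the HIF core in 18 (26.1%, against 19.6%), the GC box core in 28 (40.6%, against 35.7%) and the CCAAT core in 27 (39.1%, against 37.4%). A match of letters is a description and not a site shown to be bound.

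The other complex V genes were not called. In the F1 head, where ATP is made, the alpha and beta subunit genes Atp5a1 and Atp5b differed by -0.12 and -0.077. Atp5a1 had 12.19, 12.21 and 12.15 with purmorphamine, against 12.29, 12.29 and 12.33 with vehicle, with no overlap and a limma adjusted p of 0.17. Atp5k, the membrane subunit e, differed by -0.18 (adjusted p = 0.10 with limma). Genes of the peripheral stalk (Atp5pb, Atp5h, Atp5j and Atp5o) lay between -0.068 and 0.078. Purmorphamine values lay all below vehicle values in 6 of the 17 complex V genes (35.3%, against 17.1% of all genes). They lay all above in 0, again against 17.1% of all genes. In either direction the share was 35.3%, against 34.2% of all genes. The complex V median was -0.055. With any 1 array left out it ran from -0.088 to 0.0047, the latter without vehicle replicate 1.

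Genes around the chain were also measured, from lists of assembly factors, carriers and related pathways. Over all genes 7.18% rose and 7.16% fell, 14.3% in all. Of 13 complex I assembly factors 0 were called, and likewise 0 of 14 for complexes II, III and V, with medians of -0.0091 and 0.0021. Of 20 complex IV assembly factors Lrpprc, which stabilises mitochondrial mRNAs, fell by 0.23 on the log2 scale. Of 17 further electron carrier genes Dhodh, which feeds electrons from pyrimidine synthesis to ubiquinone, fell by 0.28, and cytochrome c, Cycs, differed by -0.11. The calls were 5% of the complex IV assembly factors and 5.88% of the further electron carrier genes. Of 17 regulators of mitochondrial transcription and biogenesis 0 were called. Among them the coactivator gene Ppargc1a differed by 0.33 at signals under the arrays' lower quartile, Nrf1 by -0.10, Esrra by -0.085 and the mitochondrial DNA factor Tfam by 0.18.

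Of 71 mitochondrial ribosome genes 1 rose and 3 fell (5.63% called, against 14.3% of all genes), with a median of -0.048. Mrpl50, Mrpl12 and Mrpl34 fell by 0.25, 0.24 and 0.24 on the log2 scale and Mrps34 rose by 0.23. Of 20 citric acid cycle and pyruvate dehydrogenase genes 2 rose and 3 fell (25% called). Idh3a, a subunit of isocitrate dehydrogenase, fell by 0.42 (limma adjusted p = 0.0023), fumarase Fh1 by 0.25 and citrate synthase Cs by 0.22, while Dld, a shared subunit of the pyruvate and oxoglutarate dehydrogenases, rose by 0.21. Of 17 carrier and import genes the chaperone gene Hspa9 rose by 0.24 and the import pore gene Tomm40 fell by 0.28 (11.8% called). The median of these 17 was -0.093. Of 14 glycolysis genes Aldoc, aldolase C, fell by 1.003 and Pkm by 0.19, and Eno2 rose by 0.33 (21.4% called).

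**Figure D4:**
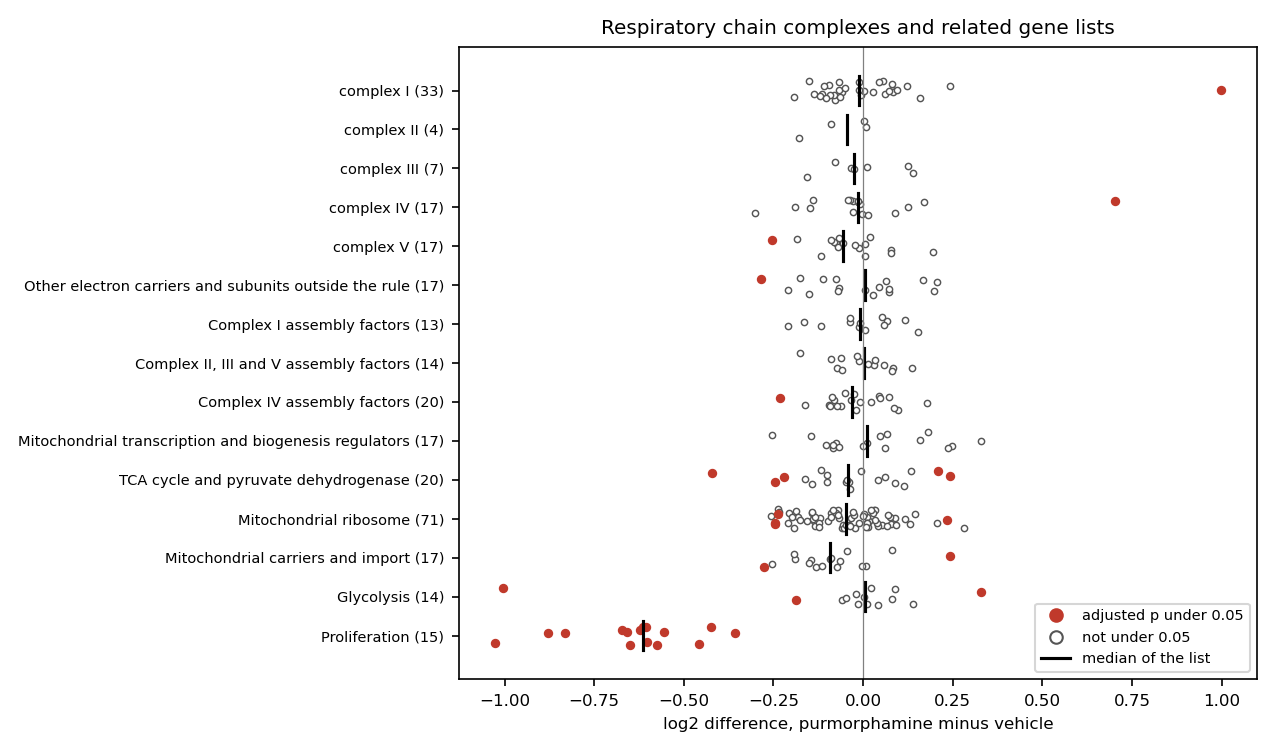
Log2 difference (purmorphamine minus vehicle, horizontal axis) of each gene in the 5 complexes and in related lists, with the number measured in brackets; red points had an adjusted p under 0.05 and bars mark list medians. The complexes lie around 0, as do most related lists, whereas all 15 proliferation genes lie to the left.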

How the data were processed

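RNA of 6 wells was measured on Affymetrix arrays, 1 per well, after poly(T)-primed labelling of 100 ng of RNA, per the labels' protocols. The values the authors deposited are log2 signals per probe set. The submitters' processing notes name oligo, RMA and limma, with versions not given in the sources used here. RMA equalises the arrays' distributions, which hides a shift shared by all genes, and understates changes at low signal. The number of arrays limits the precision.

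The table held 41345 probe sets, of which 23521 had 1 gene symbol in the platform annotation, and these gave 22180 genes. All 78 members matched the RefSeq gene table (GRCm38.p6) under the same symbol. Purmorphamine minus vehicle was fitted on all 6 arrays with lmFit and eBayes (limma 3.58.1, R 4.3.3), without a block, two-sided, adjusted by Benjamini-Hochberg over all genes, and called under 0.05. The steps were tested on simulated data. Python 3.11.15 with matplotlib 3.10.9 drew the plots.

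The members and lists were chosen with earlier results of these data known. Named were all called members, the pair of highest signal in each complex, members with paralogs and at most 4 called genes per list. Further members were named after their values were seen. Alternatives were other scalings, an offset, filters, probe set rules, variance models, array weights, a replicate block, other thresholds, other member sets and arrays left out.

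Correlations across genes were 0.996 to 0.997 within groups and 0.992 to 0.993 between them. On the second principal component (13.2% of the variance) both arrays numbered 3 stood apart, at -9.56 for purmorphamine and -13.55 for vehicle, with the others at 3.06 to 6.88.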

Additional observations from a re-analysis of the deposited data

How the results depend on the processing

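The rises of Ndufa4l2 and Cox6a2 passed the test under all 19 alternatives run, with differences of 0.84 to 1.07 and 0.50 to 0.82 and limma adjusted p up to 0.0079 and 0.038. Atp5g3 passed under 13, with adjusted p from 6.71e-04 to 0.15. The number of members that rose was 4 with a linear offset of 50, 4 with a variance trend and robust fit, 3 with only the brighter 14786 genes and 3 at an adjusted p under 0.1. The number that fell was 2 after quantile normalization, 5 with the offset, 4 with only the brighter 14786 genes, 8 with the trend and robust fit, 3 at an adjusted p under 0.1 and 0 without both arrays numbered 3, an alternative chosen after seeing the data. With 1 array left out, 2 rose in each case and 0 to 1 fell. With the replicate block 2 rose and 0 fell (Atp5g3 adjusted p = 0.0504; unadjusted p under 0.05 in 10 members), and 2432 genes were called in place of 3181. Deviations of same-numbered wells correlated at 0.106, 0.0235 and 0.103 over all genes and at 0.187, 0.244 and 0.0781 over the members. Not every pair was over 0.1, so the numbers were not taken as pairs. Over all genes every array correlated best with its own number, a hint from the data and not the design. Member medians with 1 array left out ran from -0.050 to -0.0027 for all members, from -0.057 to 0.038 for complex III, from -0.047 to 8.37e-05 for complex IV and from -0.088 to 0.0047 for complex V. Counting the Ndufa4 pair with complex IV, or leaving out Cox7a2l, left the 3 calls in place, and Atp5s and Atp5sl were not among the members. Signals near the lower quartile limit Cox7b2, Cox8c and Cox8b.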

Other observations

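A further 10 probe sets carried a respiratory chain symbol together with that of another gene and were used for no member. Among them were probe sets with the symbols of the members Ndufs1, Ndufs5 and Uqcrb. The shared probe set of Ndufs5 averaged 8.79 with purmorphamine and 8.85 with vehicle, a difference of -0.065. The dimmer one used for Ndufs5 averaged 5.60 and 5.69, a difference of -0.091. Tested over all probe sets, 0 were called with limma (0 also at an unadjusted p under 0.05), with differences of -0.14 to 0.21 and a lowest adjusted p of 0.34. Of 9 members with a second, dimmer probe set, 6 had the same sign in both and 0 of the second probe sets were called (0 also at an unadjusted p under 0.05). Over all probe sets Ndufa4l2 and Cox6a2 had limma adjusted p of 0.0039 and 0.033.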
